A study of Bos taurus with 8 samples.

Results

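Matrix proteoglycans are secreted core proteins that carry sulfated sugar chains and fill the space between the cells and collagen fibres of connective tissue. The genes described here are 9 of the 33132 gene names in the count table, taken by symbol: decorin (DCN), biglycan (BGN), lumican (LUM), fibromodulin (FMOD), osteoglycin (OGN), PRELP, versican (VCAN), aggrecan (ACAN) and perlecan (HSPG2). Their transcripts were read in whole rumen tissue of 4 adult steers, which are castrated males, and of 4 newborn male calves, with 1 library per animal. All 8 animals were angus crosses, and no label gives an age in days, a diet or a batch. Steers and calves differ in age and castration together, and the study asks which genes accompany the growth and maturation of the rumen after birth. Library totals were 42322022 to 54449684 counts in steers and 45779990 to 49628428 counts in calves.

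The small leucine-rich members, DCN, BGN, LUM, FMOD, OGN and PRELP, bind collagen fibrils and set their spacing and thickness. DCN and BGN carry chondroitin or dermatan sulfate chains, and LUM and FMOD carry keratan sulfate. VCAN and ACAN are large proteoglycans that bind hyaluronan and hold water, VCAN in loose and growing connective tissue and ACAN mainly in cartilage. HSPG2 carries heparan sulfate and belongs to basement membranes, including those around muscle cells and vessels. In the rumen wall, such matrix lies in the papilla cores and submucosa under a squamous epithelium, and around the muscle coats.

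The deposited table gives each gene's position, on a build that no source used here names. DCN (chromosome 5, 21014373 to 21053400, minus strand) and LUM (20971292 to 20980825, minus strand) lie close together. FMOD (1122158 to 1132168, minus strand) and PRELP (1238686 to 1252743, plus strand) both lie on chromosome 16. VCAN lies on chromosome 7 (83356422 to 83477598), ACAN on 21 (20377694 to 20447099), HSPG2 on 2 (130867508 to 130977474) and BGN on X (36728447 to 36742281), all on the plus strand. The spans counted were whole transcripts, introns and untranslated regions included. OGN lies on chromosome 8 from 84019267 to 84034853, wholly inside the span of CENPP, as do its relatives ASPN, OMD and ECM2. Reads that fall in more than 1 gene span were dropped in counting, so these 4 genes are listed at 0 in every library and their levels were not measured. Of the 4523 genes whose span is wholly shared, none had a count. For FMOD, 27.6% of the span is shared with LOC107133214, so its counts leave out reads from that stretch. HSPG2 shares 0.295% of its span with LDLRAD2, and the other 6 measured members share none.

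Of the 8 members with counts, all of which passed the filter on low counts, DCN and ACAN were lower in steers at a Benjamini-Hochberg adjusted p under 0.05 in edgeR's quasi-likelihood test. Of the other 6, which did not pass, none was called higher, although FMOD had an unadjusted p of 0.0208 and passed with DESeq2 but not with limma-voom. Over all 16326 tested genes, 16.9% were called, 9.16% lower and 7.7% higher. The median log2 change, steer minus calf, was -0.63 over the 8 members and 0.04 over all tested genes. The groups did not overlap for the same 2 members, against 23.3% of all tested genes. ACAN passed the filter through its calf libraries alone, so these counts describe the members and support nothing further.

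**Figure D1:**
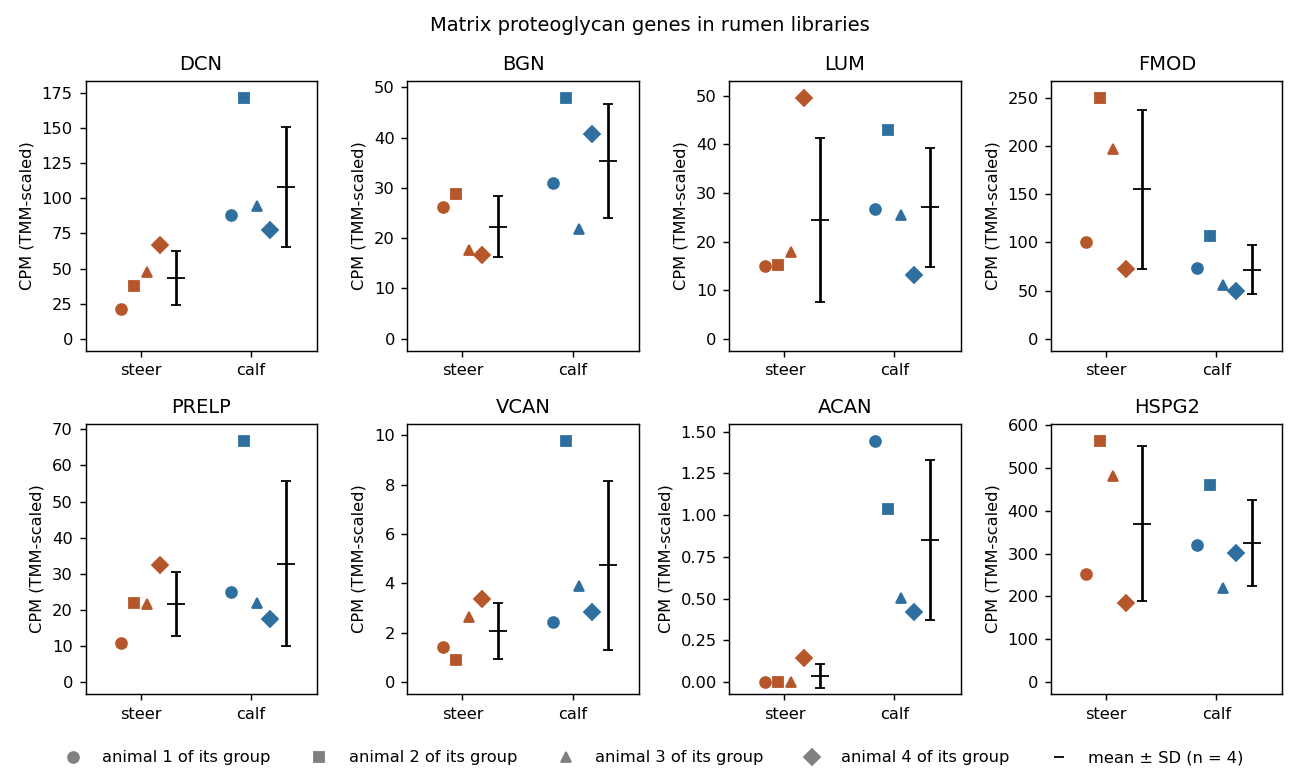
CPM (counts per 1000000 counts of a library scaled by the trimmed mean of M values, TMM) of the 8 measured members, 1 panel per gene with its own linear axis, steers on the left and calves on the right. Each symbol is 1 animal and the bar is the mean ± SD of 4 animals; DCN and ACAN are the panels in which every steer lies below every calf, and calf 2 is the highest calf in 7 of 8 panels.

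Levels are given as CPM, counts per 1000000 counts of the scaled library. DCN had 21.0, 37.6, 47.6 and 66.5 CPM in steers 1 to 4, against 88.5, 171.7, 94.7 and 77.6 CPM in calves 1 to 4. Every steer lay below every calf, and calf 2 stood well above the other calves. The means were 43.2 ± 19.0 CPM in steers and 108.1 ± 43.0 CPM in calves (SD, n = 4 each), which is 2.50-fold lower in steers. The log2 change was -1.32 ± 0.37 (SE, adjusted p = 0.0369). This call lies close to the threshold. It held without calf 4 or steer 4 and ended when any 1 of the other 6 libraries was left out, where adjusted p ran from 0.0606 to 0.0848, and with scaling by library size only (0.0632). The log2 change itself stayed between -1.61 and -1.01 with 1 library left out. In bulk tissue, fewer cells that make a transcript and less of it per cell cannot be told apart.

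BGN, the closest relative of DCN, had 26.3, 28.7, 17.7 and 16.6 CPM in steers 1 to 4, against 31.1, 47.9, 21.9 and 40.8 CPM in calves 1 to 4. The lowest calf lay between the steers, so the groups overlapped. The means were 22.3 ± 6.1 CPM in steers and 35.4 ± 11.4 CPM in calves (SD, n = 4 each). The log2 change of -0.67 ± 0.29 did not pass over all genes (edgeR adjusted p = 0.143, unadjusted p = 0.0434). BGN varied least between steers of all members, with a coefficient of variation of 27.3% in steers and 32.1% in calves.

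LUM had 15.0, 15.2, 17.8 and 49.6 CPM in steers 1 to 4, against 26.6, 42.9, 25.4 and 13.2 CPM in calves 1 to 4. Steer 4 was the highest of all 8 animals and calf 4 the lowest. The means were 24.4 ± 16.8 CPM in steers and 27.0 ± 12.2 CPM in calves (SD, n = 4 each), with a log2 change of -0.15 ± 0.46 (adjusted p = 0.865). The sign of that change turned without calf 2, steer 1 or steer 2, at 0.17, 0.03 and 0.03, and without steer 4 it was -0.75. LUM therefore has no settled direction in these data.

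By counts, FMOD was the most abundant small leucine-rich member in steers, whereas DCN exceeded it in every calf. FMOD had a higher mean in steers than in calves. It had 100.1, 249.9, 197.2 and 72.8 CPM in steers 1 to 4, against 73.8, 106.3, 56.1 and 49.3 CPM in calves 1 to 4. Steers 2 and 3 lay above every calf, whereas steers 1 and 4 lay among them. The means were 155.0 ± 82.8 CPM in steers and 71.4 ± 25.5 CPM in calves (SD, n = 4 each), 2.17-fold apart. The log2 change of 1.12 ± 0.41 did not pass (edgeR adjusted p = 0.0894). It did pass without steer 4, at 1.36 (adjusted p = 0.029), without calf 2 and steer 4 together, at 1.61 (0.0153), and with DESeq2 (0.0368). Without steer 2 it was 0.80 (0.208).

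PRELP, which anchors basement membranes to the collagen below them, had 10.7, 21.9, 21.6 and 32.4 CPM in steers 1 to 4, against 24.9, 66.8, 21.9 and 17.4 CPM in calves 1 to 4. Apart from calf 2, the calves lay inside the range of the steers. The means were 21.7 ± 8.8 CPM in steers and 32.8 ± 22.9 CPM in calves (SD, n = 4 each). The log2 change was -0.60 ± 0.46 (adjusted p = 0.416), and without calf 2 it was 0.014 (0.983). The remaining 3 calves averaged 21.4 ± 3.8 CPM.

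VCAN had 1.40, 0.891, 2.64 and 3.37 CPM in steers 1 to 4, against 2.42, 9.77, 3.87 and 2.84 CPM in calves 1 to 4. The ranges overlapped, and calf 2 alone was far above the rest. The means were 2.08 ± 1.13 CPM in steers and 4.73 ± 3.42 CPM in calves (SD, n = 4 each), with a log2 change of -1.18 ± 0.56 (adjusted p = 0.178) and of -0.55 without calf 2. The counts behind these values were 32 to 192 in steers and 104 to 584 in calves.

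ACAN was at the edge of detection. Steers 1 to 4 had 0, 0, 0 and 8 counts, against 62, 62, 24 and 20 counts in calves 1 to 4. In steers only animal 4 held any count, and every calf had more. In CPM the means were 0.0351 ± 0.0701 in steers and 0.851 ± 0.481 in calves (SD, n = 4 each). The edgeR log2 change was -4.34 ± 1.08 (adjusted p = 0.0227). The steer mean lies below a floor of 3 counts per library (0.0526 to 0.0835 CPM in steers), so the size of that change is uncertain. Since each pair of reads adds up to 2 counts, these are about 4 pairs in steers and 84 in calves. Per scaled library that is 19.8-fold lower in steers, with an exact 95% interval of 7.45 to 74.3 that covers counting error only. The call ended without calf 1 (adjusted p = 0.0651), steer 1 (0.0531) or steer 3 (0.0556). Without steer 4 no count was left in steers, so the fitted -8.32 is not a measured size.

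Other cartilage genes ranged from near the floor to well above ACAN. The cartilage marker list summed to 8.26 to 24.8 CPM in steers and 32.6 to 40.3 CPM in calves, with 0 of its 7 tested genes called higher and 2 lower. Its most abundant genes, CNMD and COL11A2, overlapped between the groups and were not called. CNMD was at 8.61 ± 2.55 CPM in steers and 12.7 ± 3.9 CPM in calves. COL11A2 was at 4.64 ± 8.28 CPM in steers and 15.7 ± 3.5 CPM in calves, with steer 1 at 17.0 CPM. COL2A1, the main cartilage collagen, was at 0.0923 ± 0.0720 CPM in steers and 2.98 ± 0.51 CPM in calves (edgeR adjusted p = 0.00132). It was named after its values were seen and, like ACAN, passed the filter on low counts through its calf libraries alone. Its call therefore lends no support to that of ACAN. The cartilage regulator SOX9 was at 0.130 ± 0.237 CPM in steers and 0.364 ± 0.334 CPM in calves. The part of such cells in the ACAN values was not tested.

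HSPG2, the most abundant member in counts, had 251.6, 562.9, 480.6 and 183.3 CPM in steers 1 to 4, against 319.0, 459.8, 218.4 and 300.9 CPM in calves 1 to 4. The highest animal and the lowest animal were both steers, so the calves lay inside the steer range. The means were 369.6 ± 181.0 CPM in steers and 324.5 ± 100.2 CPM in calves (SD, n = 4 each). The log2 change was 0.19 ± 0.38 (adjusted p = 0.785), and its sign turned without steer 2 (-0.077).

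**Figure D2:**
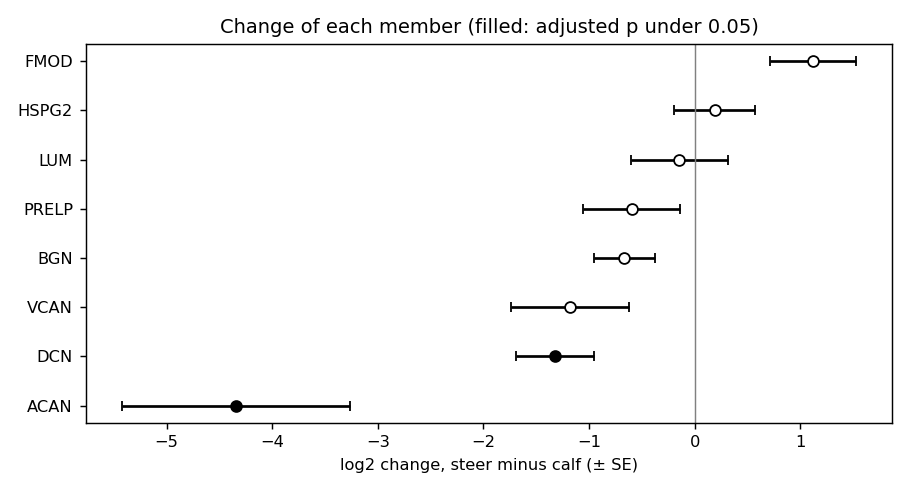
Log2 change, steer minus calf, of the 8 measured members from edgeR, with bars of 1 SE; filled points passed an adjusted p of 0.05 over all tested genes. The change runs from -4.34 for ACAN to 1.12 for FMOD, and only DCN and ACAN are filled.

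Levels of different genes were compared as CPM per kilobase of the counted span. The span holds introns as well as exons and so understates genes with long introns such as VCAN. DCN also has a longer span (39.0 kb) than FMOD (10.0 kb) or LUM (9.53 kb), so its place and its share below depend on span length. On that scale FMOD ranked first in both groups, at 15.5 ± 8.3 CPM per kb in steers and 7.13 ± 2.55 CPM per kb in calves. Its lowest library lay above the highest HSPG2 library, at 7.27 against 5.12 CPM per kb in steers and at 4.92 against 4.18 CPM per kb in calves. In steers the order below it was HSPG2 (3.36 ± 1.65 CPM per kb), LUM (2.56 ± 1.76), BGN (1.61 ± 0.44), PRELP (1.54 ± 0.63) and DCN (1.11 ± 0.49). In calves it was HSPG2 (2.95 ± 0.91 CPM per kb), LUM (2.84 ± 1.28), DCN (2.77 ± 1.10), BGN (2.56 ± 0.82) and PRELP (2.33 ± 1.63). Neighbours among these 5 genes overlapped between libraries in both groups, so the steps between them were within the spread of the animals. VCAN (0.0171 ± 0.0093 CPM per kb in steers and 0.0390 ± 0.0282 CPM per kb in calves) and ACAN came far below.

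The make-up of this pool within a library does not depend on scaling between libraries. DCN made up 2.66% to 8.79% of the summed CPM per kb of the members in steers and 11.7% to 15.3% in calves, with no overlap. FMOD made up 58.5%, 68.8%, 65.7% and 37.5% in steers 1 to 4, against 38.0%, 33.2%, 35.3% and 32.3% in calves 1 to 4. The pool of steer 4 thus held about as much FMOD as that of calf 1, and LUM made up 26.8% of it, against 4.39% to 9.25% in the other steers and 9.07% to 16.8% in calves. The pool as a whole summed to 17.1 to 36.3 CPM per kb in steers and 15.2 to 32.0 CPM per kb in calves. These shares are given as descriptions, with no test.

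**Figure D3:**
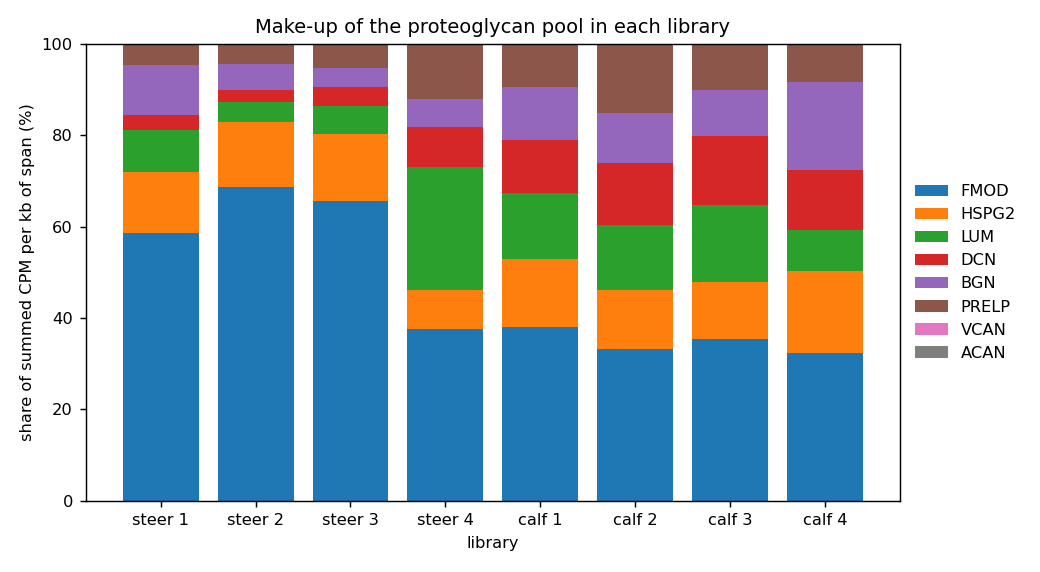
Stacked bars of the share of each member in the summed CPM per kb of span, for steers 1 to 4 on the left and calves 1 to 4 on the right; OGN was not measured, and VCAN and ACAN are too small to see. FMOD takes 58.5% to 68.8% in steers 1 to 3 but 37.5% in steer 4, next to 32.3% to 38.0% in calves, and DCN is smaller in every steer.

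Ratios of counts taken within each library showed the same contrasts pair by pair; the pairs were chosen after the values were seen, so they carry no test. There were 0.150 to 0.913 DCN counts per FMOD count in steers and 1.20 to 1.69 in calves, without overlap, and steer 4 held the highest steer ratio. DCN per LUM was 1.34 to 2.67 in steers and 3.33 to 5.89 in calves, also without overlap. DCN per PRELP was 1.71 to 2.20 in steers and 2.57 to 4.46 in calves, again without overlap. DCN per BGN overlapped, at 0.801 to 4.01 in steers and 1.90 to 4.33 in calves.

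Set against COL1A2, a chain of type I collagen, the members differed among themselves. COL1A2 averaged 145.4 ± 41.7 CPM in steers and 591.6 ± 312.7 CPM in calves (log2 change -2.02, adjusted p = 0.00888), a call that held with each library left out. DCN per COL1A2 count overlapped, at 0.213 to 0.468 in steers and 0.141 to 0.332 in calves. FMOD per COL1A2 count did not, at 0.512 to 1.41 in steers and 0.105 to 0.196 in calves, and neither did BGN per COL1A2 count, at 0.101 to 0.300 in steers and 0.0474 to 0.0921 in calves.

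**Figure D4:**
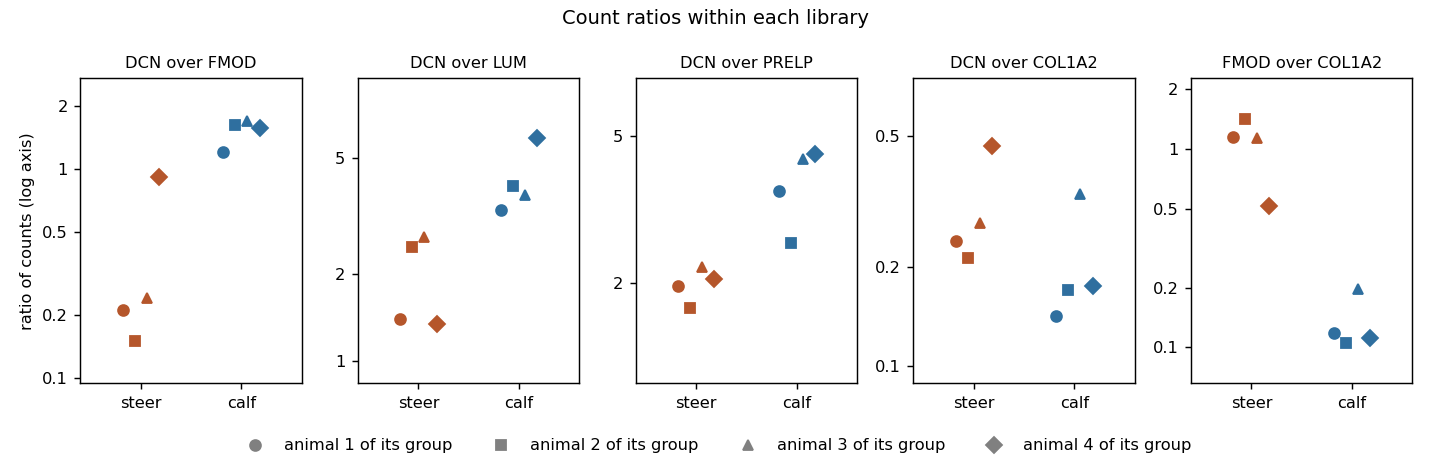
Ratios of deposited counts within each library on log axes, steers left and calves right, 1 symbol per animal. DCN relative to FMOD, LUM or PRELP is lower in every steer than in any calf, DCN relative to COL1A2 overlaps, and FMOD relative to COL1A2 is higher in every steer (0.512 to 1.41) than in any calf (0.105 to 0.196).

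Across the 8 libraries, the pair of members most alike was LUM and PRELP, with a root mean square difference of 0.43 between their centred log2(CPM + 0.5) values, followed by DCN and VCAN (0.44) and by FMOD and HSPG2 (0.49). DCN and FMOD were the least alike of the 28 pairs (1.38). Among the 8747 genes with a mean of at least 10 CPM and a symbol, those nearest to DCN were PLEKHA5 (0.21), FBN1 (0.26) and NUAK2 (0.28), where the median gene differed by 0.95. FBN1, the fibrillin of microfibrils, averaged 13.1 ± 5.3 CPM in steers and 24.9 ± 10.2 CPM in calves (adjusted p = 0.113). For ACAN the nearest were CHPT1 (0.22), RARG (0.24) and BAIAP2 (0.27), but the added 0.5 exceeds most ACAN values and flattens its pattern.

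Sums of cell type markers differed between libraries and are set beside the members here as descriptions. Calf 2 was the highest calf for 7 of 8 members, and its fibroblast markers summed to 5316 CPM, against 2043 to 3193 CPM in the other calves. Most of the calf 2 sum was collagen transcript, with COL1A1 at 2062 CPM, COL3A1 at 1441 CPM and COL1A2 at 1011 CPM. These collagen genes are also counted among the matrix partners below, so the sum is no separate measure of fibroblasts. Steer 4 was the highest steer for 5 members (DCN, LUM, PRELP, VCAN and ACAN). It had the lowest fibroblast sum of the steers, 1957 CPM, a place that depends on the marker S100A4. Of 15 fibroblast markers 1 was called higher and 6 lower in steers, with sums of 1957 to 2967 CPM in steers and 2043 to 5316 CPM in calves. S100A4, which other cell types also make, was the one called higher and held much of the steer sums, at 1328 ± 656 CPM in steers and 283.2 ± 121.9 CPM in calves. It was at 2307, 1052, 899 and 1056 CPM in steers 1 to 4. Without it, steer 1 rather than steer 4 would have the lowest steer sum and steer 2 the highest. The sums of the 2 groups would then not overlap. Among the members, steer 1 was the lowest steer for DCN, LUM and PRELP, and steer 2 the highest for BGN, FMOD and HSPG2. Smooth muscle markers summed to 66219, 127401, 60854 and 12980 CPM in steers 1 to 4, against 22017, 16635, 7873 and 16889 CPM in calves 1 to 4, and of 13 tested markers 6 were higher and 1 lower. Steer 2, the highest for smooth muscle, was also the highest steer for FMOD and HSPG2, and steer 4 was the lowest steer for all of these. In calves the highest animals differed, calf 1 for smooth muscle and calf 2 for FMOD and HSPG2. Calf 3 was the lowest calf for smooth muscle and HSPG2, and calf 4 for FMOD.

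Endothelial markers, of a cell type that also makes HSPG2, summed to 212.8 to 293.9 CPM in steers and 301.6 to 609.5 CPM in calves, with 0 of 10 higher and 3 lower. Basal keratinocyte markers summed to 17759 to 36820 CPM in steers and 12365 to 18427 CPM in calves, with 3 of 12 higher (KRT17, KRT14 and DST) and 1 lower (COL17A1). The most abundant in steers, KRT17, was at 12007 ± 6307 CPM in steers and 887.3 ± 394.0 CPM in calves, while KRT5 was at 3491 ± 604 CPM in steers and 3161 ± 213 CPM in calves. KRT15 had a lower mean in steers, at 4670 ± 2157 CPM against 8653 ± 2323 CPM in calves, and was not called (edgeR adjusted p = 0.170). Markers of differentiated rumen keratinocytes summed to 1824 to 7969 CPM in steers and 37531 to 88738 CPM in calves, with 2 of 8 higher (KRT6A and KRT36) and 2 lower. IVL, DSG1 and DSG3, also in this list, have wholly shared spans and so were not measured. The lower pair, KRT4 (1.37 ± 1.67 CPM in steers and 37739 ± 12346 CPM in calves) and KRT13 (522.3 ± 324.3 CPM in steers and 29705 ± 10120 CPM in calves), carried the calf sums, whereas KRT6A was at 2180 ± 1454 CPM in steers and 197.7 ± 95.5 CPM in calves. Immune markers summed to 26.9 to 80.2 CPM in steers and 52.4 to 101.2 CPM in calves, with 4 of 7 higher (PTPRC, CD3E, CD2 and CSF1R) and 1 lower. The lower one, CD14, made up most of the calf sums, at 15.3 ± 10.99 CPM in steers and 59.3 ± 23.0 CPM in calves, and CSF1R was at 14.9 ± 5.8 CPM in steers and 5.83 ± 0.96 CPM in calves. Mesothelial markers summed to 56.6 to 137.0 CPM in steers and 150.1 to 235.2 CPM in calves, with 1 of 6 higher and 2 lower. UPK3B was at 72.7 ± 30.5 CPM in steers and 20.4 ± 5.0 CPM in calves, UPK1B at 0.321 ± 0.324 CPM in steers and 95.5 ± 42.4 CPM in calves, and KRT7 at 0.742 ± 0.248 CPM in steers and 52.0 ± 18.1 CPM in calves. In the same list WT1 had no count in any library and MSLN stayed at or below 0.450 CPM in steers and 0.711 CPM in calves. Enteric glia and neuron markers had 2 of 7 lower and adipocyte markers 1 of 6 lower, and no cell cycle marker reached an unadjusted p under 0.05. Blood cell markers summed to at most 3.55 CPM in steers and 5.85 CPM in calves. The part of tissue make-up in the changes of the members was not tested.

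Genes that build, carry, cut or bind proteoglycans were taken from 10 lists ordered by role. Of their 135 tested genes, 29 (21.5%) were called lower in steers and 6 (4.44%) higher, beside 9.16% and 7.7% of all tested genes. Their median log2 change was -0.40, against 0.04 over all tested genes. Some of the lower genes, ADAMTS18, HS3ST5 and NCAN among them, passed the filter on low counts through their calf libraries alone. These shares therefore describe the lists and support nothing further. With 1 library left out, 21 to 36 were lower and 5 to 7 higher. In the 6 lists with no gene called higher by edgeR, 3 genes had a positive change with an unadjusted p under 0.05, DESeq2 called 2 higher and limma-voom 0.

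**Figure D5:**
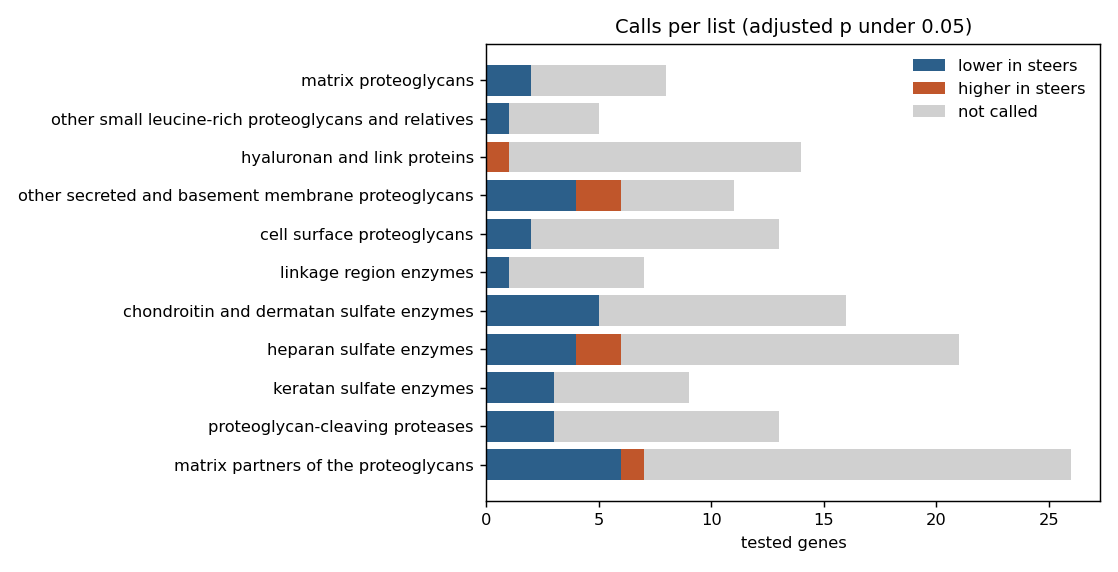
Number of tested genes per list that were called lower in steers (blue), called higher in steers (orange) or not called (grey) at an adjusted p of 0.05 in edgeR. Lower calls outnumber higher ones in 10 of the 11 bars, the matrix proteoglycans among them; the hyaluronan list has 1 higher and 0 lower.

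Among 5 tested relatives of the small leucine-rich proteoglycans, 1 was lower and none higher. This was CHADL, a chondroadherin relative, at 0.664 ± 0.261 CPM in steers and 2.74 ± 1.20 CPM in calves (log2 change -2.03 ± 0.46). KERA and EPYC, which share the chromosome of DCN and LUM, were too low to test, at 0.105 ± 0.132 CPM in steers and 0.0924 ± 0.0541 CPM in calves for KERA. In the hyaluronan list 1 of 14 genes was higher and none lower, with 0 to 2 lower when 1 library was left out. UGDH, which makes the glucuronate donor used for hyaluronan and for the sulfated chains as well as for detoxification, had 112.7, 49.7, 76.8 and 304.3 CPM in steers 1 to 4, against 13.98, 18.2, 28.8 and 21.1 CPM in calves 1 to 4. Steer 4 was highest, and the log2 change was 2.73 ± 0.54 (adjusted p = 0.00823) and 1.96 without it.

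Among 11 tested genes of the list of other secreted proteoglycans, which also holds SMOC1, SMOC2 and TNC, 4 were lower and 2 higher. That is 36.4% and 18.2% of them, beside 9.16% and 7.7% of all tested genes. The testican SPOCK1 was at 5.60 ± 4.56 CPM in steers and 53.8 ± 23.8 CPM in calves (log2 change -3.27 ± 0.56), and at -4.01 without steer 2. The calcium-binding matrix proteins SMOC2 and SMOC1 had log2 changes of -4.16 ± 0.45 and -3.03 ± 0.63. Serglycin (SRGN), the proteoglycan of blood cell granules, rose by 1.86 ± 0.31 on the log2 scale. Tenascin-C (TNC), in this list a glycoprotein that binds such proteoglycans, had 49.2 to 146.3 CPM in steers and 3.87 to 9.0 CPM in calves, a log2 change of 4.25 ± 0.45 (adjusted p = 0.000438). At the cell surface, 2 of 13 genes were lower and none higher (0 lower without calf 1, 5 lower without steer 4), namely the glypican GPC5 (-3.29 ± 0.91) and the receptor phosphatase PTPRZ1 (-1.46 ± 0.36). The GPC5 call ended without calf 1, calf 4 (-2.64) or steer 2, and the PTPRZ1 call without calf 1, calf 3, steer 1 or steer 3.

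Enzymes of sugar chain synthesis were mostly lower where they were called. XYLT1, a xylosyltransferase that starts the chains on the core protein, was the 1 lower gene of 7 linkage region enzymes, at 3.84 ± 1.19 CPM in steers and 7.56 ± 1.61 CPM in calves (adjusted p = 0.0487). That call held without steer 4 and ended without any 1 of the other 7 libraries. Of 16 chondroitin and dermatan sulfate enzymes 5 were lower and none higher. With 1 library left out, 3 to 6 were lower, and 3 was the count without calf 1, calf 2, calf 4, steer 1 or steer 3. They included DSEL, an epimerase that turns chondroitin into dermatan sulfate, which had 7.90 to 13.6 CPM in steers and 24.1 to 29.2 CPM in calves (log2 change -1.43 ± 0.22, adjusted p = 0.00253). The sulfotransferase CHST13 was at 1.96 ± 0.48 CPM in steers and 7.83 ± 2.39 CPM in calves. CSGALNACT1, which places the first galactosamine of a chain, had a log2 change of -1.29 ± 0.25.

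Of 9 tested keratan sulfate enzymes 3 were lower and none higher. CHST1, which sulfates the galactose of keratan sulfate, had 0.950 to 5.40 CPM in steers and 23.7 to 44.0 CPM in calves, a log2 change of -3.64 ± 0.49 (adjusted p = 0.00139). CHST4, a sulfotransferase for N-acetylglucosamine, and the galactosyltransferase B4GALT4 had log2 changes of -4.92 ± 1.09 and -1.44 ± 0.27, and CHST4 was at -6.42 without steer 4. FMOD and LUM, described above as carrying keratan sulfate, were not called.

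Of 21 heparan sulfate enzymes 2 were higher and 4 lower, and the calls within one enzyme family ran both ways. With 1 library left out, 2 to 5 were lower, and 2 was the count without any 1 calf, steer 1 or steer 3. The 3-O-sulfotransferase HS3ST2 was at 13.2 ± 8.7 CPM in steers and 1.26 ± 0.52 CPM in calves (log2 change 3.39 ± 0.67), whereas HS3ST1 was at 3.61 ± 2.41 CPM in steers and 33.5 ± 10.4 CPM in calves (-3.21 ± 0.46). HS3ST5 had a log2 change of -4.13 ± 0.80 and -4.90 without steer 3, with steer values near the floor of 3 counts. SULF1, which removes sulfate groups outside the cell, rose by 2.45 ± 0.53 on the log2 scale. EXTL1, an exostosin-like glycosyltransferase, had a log2 change of -2.06 ± 0.59, a call that ended without any 1 calf and without steer 1 or steer 3 (-2.22 to -1.70). The HS3ST2 groups overlapped, with steer 4 at 1.81 CPM below calf 1 at 1.96 CPM, and the HS3ST2 call was lost with limma-voom (adjusted p = 0.058).

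Among 13 tested proteases that cut proteoglycans or their precursors, 3 were lower and none higher. ADAMTS9, which cleaves versican and aggrecan, was at 1.98 ± 0.84 CPM in steers and 13.3 ± 3.7 CPM in calves (log2 change -2.74 ± 0.37, adjusted p = 0.00141), with 13.03% of its span shared with other genes. ADAMTS18 had no count in any steer and 2.56 ± 0.68 CPM in calves, at least 38.3-fold lower if steers are set to a floor of 3 counts per library. BMP1, which trims procollagen and the precursor of biglycan, was at 75.4 ± 19.7 CPM in steers and 177.1 ± 31.6 CPM in calves (-1.23 ± 0.24). The aggrecan-cleaving enzymes ADAMTS4 and ADAMTS5, named after their values were seen, were at 2.24 ± 1.49 and 0.601 ± 0.391 CPM in steers and 2.91 ± 2.54 and 0.491 ± 0.070 CPM in calves, and neither passed.

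Of 26 matrix partners 6 were lower and 1 higher. COL1A1, the other chain of type I collagen, had 125.0 to 256.1 CPM in steers and 745.4 to 2062 CPM in calves (log2 change -2.56 ± 0.38, adjusted p = 0.00232). Elastin (ELN) was at 88.7 ± 11.01 CPM in steers and 510.5 ± 364.4 CPM in calves (-2.53 ± 0.43, and -1.90 without calf 2), and fibulin-2 (FBLN2), a binding partner of versican and perlecan, had a log2 change of -2.17 ± 0.33. Type III collagen COL3A1 was at 559.5 ± 270.6 CPM in steers and 896.7 ± 419.4 CPM in calves and did not pass (adjusted p = 0.323). Fibronectin (FN1) was at 189.0 ± 149.7 CPM in steers and 52.3 ± 22.9 CPM in calves (1.85 ± 0.55, adjusted p = 0.045). Its call ended without any 1 calf, without steer 2 or without steer 3, where the log2 change was 1.18, and with limma-voom or scaling by library size only.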

How the data were processed

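Per the file headers, the authors used featureCounts 2.0.2 on transcript features grouped under their gene names, in paired mode without counting of pairs and with no strand option. Introns therefore add to a count, both mates count (86.9% to 89.0% of counts from 1 to 10 were even), and antisense reads cannot be told apart although the library kit marks strand. The deposited values are raw counts. Per the submitters' processing notes, Trimmomatic 0.39, STAR 2.7.11a and DESeq2 1.42.0 were also used. Span lengths are those deposited in the same table.

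The comparison of steers and calves used edgeR 4.0.16 in R 4.3.3, with filterByExpr, TMM scaling, a robust quasi-likelihood fit and Benjamini-Hochberg adjustment over 16326 genes, called under 0.05. The SE was taken from the log2 change and its F statistic. The procedure was tested on simulated data. No library repeated another (smallest chi-square per degree of freedom 93.0). The members and lists were chosen with earlier results of these data known. Named genes are all members, up to 3 called genes per list and direction with the largest change, the most abundant markers and the nearest genes in pattern; COL1A2, COL2A1 and some markers were added after their values were seen. Alternatives were 3 scalings, 2 filters, no robust dispersion, DESeq2 1.42.0, limma-voom (limma 3.58.1), a replicate block, halved counts, the 50 most abundant genes left out, and libraries left out. Chromosome numbers come from the ARS-UCD2.0 gene table by symbol (27621 matched).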

Additional observations from a re-analysis of the deposited data

Results flagged for a closer look

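In 6 of 71 groups of 4 libraries looked at, 1 library lay far from the other 3 by Dixon's criterion, which chance meets in about 1 group in 20. LUM was at 49.6 CPM in steer 4, against 15.0 to 17.8 CPM in the other steers. ACAN was at 0.140 CPM in steer 4 and at 0 in the other steers. SPOCK1 was at 12.4 CPM in steer 2, against 2.91 to 3.72 CPM in the other steers. Calf 2 stood above the other calves for PRELP (66.8 CPM, the others at 17.4 to 24.9), TNC (9.0 CPM, the others at 3.87 to 4.57) and ELN (1051 CPM, the others at 251.0 to 372.0).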

How the results depend on the processing

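Over 20 alternatives, BGN and VCAN kept a negative change and never passed. With 1 library left out, log2 changes ran from -1.61 to -1.01 for DCN, from -8.32 to -3.93 for ACAN, from 0.80 to 1.37 for FMOD, from -0.75 to 0.17 for LUM, from -0.86 to 0.014 for PRELP and from -0.077 to 0.41 for HSPG2, and all genes called higher numbered 705 to 1473 and lower 1029 to 1784. Scaling by library size only gave 835 higher genes, a share of 34.9% of calls beside 45.7% with TMM; it moved the median log2 change of all genes to -0.07 from 0.04 and ended the DCN call at -1.45. DESeq2 gave 1944 higher and 2136 lower genes and called FMOD at 1.12. Without calf 2 and steer 4 FMOD was called at 1.61. The cause of these shifts was not tested. The replicate block gave 785 higher genes, with DCN at -1.37 and ACAN at -4.94, neither called. Same-numbered steers and calves deviated together at correlations of 0.199, 0.083, -0.095 and -0.266, inside the range of the other pairs (-0.385 to 0.339). These values show no pairing by number, but so few correlations cannot exclude one. ACAN was not tested with the 1 CPM filter or with halved counts, since too few counts were left. The composition by coding length was not run, because no protein table was used here. Depth limits ACAN most, and VCAN next.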
